A study of Arabidopsis thaliana with 12 samples.

Results

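The genes described here are those of Arabidopsis thaliana seedlings whose annotated coding reading frames were listed with different stop codons in root and in shoot. They were chosen from the positions themselves. Every open reading frame (ORF) labelled as coding sequence was taken from the root and the shoot table of translated ORFs, its stop was read as the downstream end of its last block, and a gene was kept when its root stops and shoot stops were not the same set. This left 341 of the 14635 genes that had a coding ORF in root and in shoot, which is 2.33% with an exact binomial 95% interval of 2.09 to 2.59%. The tables name 18273 genes in all. That these genes differ in their stops is therefore the way they were chosen and not a result.

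Col seedlings had been grown for 4 days in hydroponic liquid medium with 1% sucrose at 22 °C under 16 h of light and 8 h of dark, and roots and shoots were harvested at ZT 3 h. The 12 samples fell into 4 groups of 3, with ribosome profiling and RNA-seq of each tissue. The labels give no mutation, transgene or treatment, and no statement that samples of a group came from separate plants. Each tissue had 1 set of translated ORFs with 1 whole-number count per ORF, so there is no value per replicate and no p-value. Intervals of single ORF counts cover counting error only. Those of percents and of the median ratio treat genes or stops as independent draws and hold no variation between samples. Summed over genes, the largest coding ORF count gave 113282984 in root and 95412774 in shoot. Of 7 root markers, 3 had a coding ORF in root only and 4 in both tissues, and of 7 shoot markers, 2 had one in shoot only and 4 in both. RHD6, RSL4 and PLT1, regulators of root hairs and the root tip, were the root ones, and SPCH and TMM, which act in stomatal development, the shoot ones. Of the root markers listed in both, EXPA7, COW1 and CASP1 had 17572, 22239 and 19925 counts in root and 304, 1165 and 380 in shoot. PYK10, a beta-glucosidase of root endoplasmic reticulum bodies, was not low in shoot, with 1719622 counts in root and 802039 in shoot. The shoot markers LHCB1.3, LHCA1, PSAD1 and PSBO1 had 26179, 6525, 7497 and 15473 counts in root. In shoot they had 801315, 176900, 172724 and 240116. LHCB2.1 had no coding ORF in either tissue. As the RNA-seq values were not analysed here, a lower count can reflect fewer cells, less RNA per cell or less translation, which cannot be told apart.

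Ribosome profiling sequences the RNA fragments that ribosomes protect, and translated ORFs are commonly recognised by fragments that step along them codon by codon. A gene can give more than 1 stop codon when alternative splicing retains an intron or joins exons in another frame, or when alternative polyadenylation ends the transcript early. In plants, intron retention is the most common form of alternative splicing, and a stop reached early can give a shortened protein or send the transcript to nonsense-mediated decay. A further stop can belong to a short upstream ORF in the leader of a transcript, a class known in Arabidopsis from genes such as SAC51, whose upstream ORF lowers translation of the main protein.

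Most of the differences were an additional stop in 1 tissue beside a shared one. The root set held all shoot stops and more in 184 genes (54.0%), and the shoot set held all root stops and more in 139 (40.8%). In 3 genes each tissue had a stop of its own beside a shared one, and 15 genes shared no stop. Counted over both tissues, 281 of the genes had 2 stops, 55 had 3, 4 had 4, and CIPK3, a protein kinase that binds calcineurin B-like calcium sensors, had 5. A total of 1550 genes had at least 2 stops over both tissues, and the 341 were 22.0% of them (19.96 to 24.1%), while the other 1209 had the same stops in root and shoot. The tables also list 31 of the 341 under an ORF that another gene identifier carries at the same coordinates, so the genes stand for 325 distinct loci. Chromosomes 1 to 5 held 87, 62, 67, 50 and 71 of the genes, the plastid genome 3 and the mitochondrial genome 1.

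The choice of ORFs moved these numbers. With coding ORFs of at least 100 codons, 141 genes differed. With only the ORF of largest count per gene and tissue, 100 genes differed, of which 44 were among the 341, and with only the longest ORF 58 differed, of which 48 were among them. Restricting both sets to ORFs at or above the first quartile of counts gave 165 genes, of which 58 were among the 341 and 107 were not, as that limit removes an ORF from 1 tissue and not from the other.

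Annotated splice forms were frequent among these genes. In RefSeq, 92.2% of the 320 genes that matched its table by locus tag have more than 1 protein, against 98.1% of 1202 genes with 2 or more stops that were the same in both tissues and 43.8% of 13041 genes with 1 stop.

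The changed stops numbered 373, of which 209 were listed in root only and 164 in shoot only. Each was set against a partner, the ORF of the other tissue that shared the most coding bases with it in the same frame. Ties went to the ORF with the most shared bases in any frame, and then to the larger count. A partner in frame existed for 266 stops (71.3%), the overlap was in another frame for 46 (12.3%), and 61 (16.4%) belonged to ORFs that overlapped no ORF of the gene in the other tissue. The stop lay inside an intron of the partner in 137 cases (36.7%, interval 31.8 to 41.8%), inside a coding block of the partner in 97 (26.0%) and downstream of the partner's stop in 32 (8.58%). An intron of the partner was the most frequent place in each tissue, at 74 of 209 root stops and 63 of 164 shoot stops. Measured against the nearest stop of the other tissue, the last coding blocks were separate in 290 genes, overlapped in 49 and were of both kinds in 2.

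**Figure D1:**
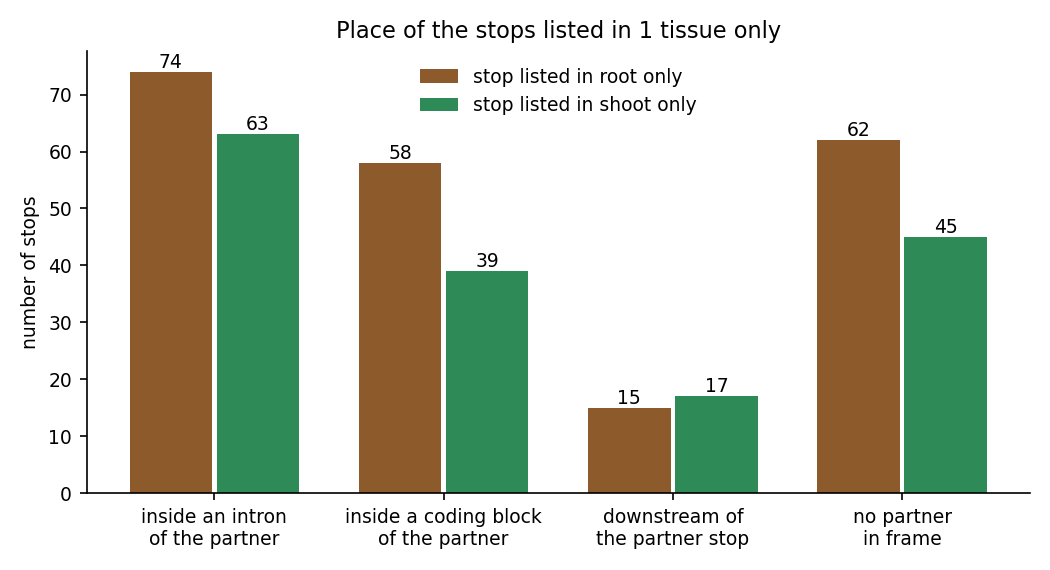
Number of stops listed in 1 tissue only, on the vertical axis, by their place relative to the partner ORF of the other tissue, with 1 bar for stops found in root only and 1 for stops found in shoot only. Stops inside an intron of the partner lead in both tissues, with 74 in root and 63 in shoot, and stops downstream of the partner's stop are the fewest, with 15 and 17.

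Where the start was the same, the ORF with the changed stop was nearly always the shorter. Of the 266 stops with a partner in frame, 183 belonged to ORFs that began at the partner's start. The changed ORF was shorter in 165 of these (90.2%, 84.9 to 94.1%) and longer in 18, and its median length was 230 codons below the partner's, a difference written as -230 codons with quartiles of -398.5 and -59.5. In 97 of the 183, all shared bases were read in 1 frame, and in the other 86 part of them were read in another frame. The share of shorter ORFs was 91.4% in root and 88.5% in shoot. The partner was the ORF with the most shared bases in frame, and remaining ties went to the larger count. Both rules can favour a longer partner, and their part in these values was not tested. Among the 18 longer ones were PIL5, PRR9 and CYP76C1 in shoot and FLC and RPA in root.

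**Figure D2:**
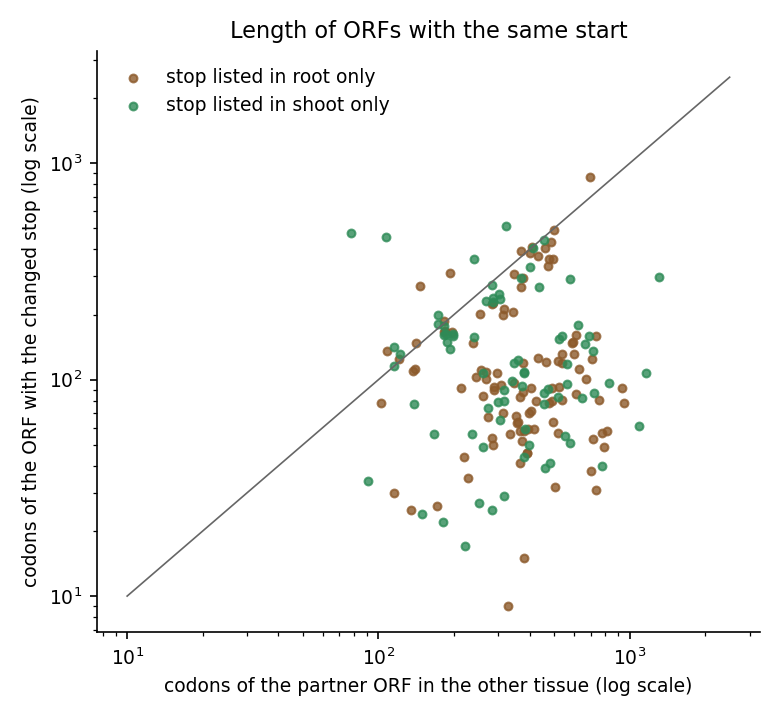
Codons of the ORF with the changed stop against codons of its partner in the other tissue, for the 183 stops whose ORFs share a start, both axes logarithmic, coloured by the tissue that listed the stop. The line marks equal length, and 165 of the 183 points lie under it.

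ORFs with a changed stop mostly carried fewer fragments than their neighbours in the same gene, but they were also shorter. The counts were not scaled by length, so whether these ORFs had fewer fragments per codon was not tested. Their median length was 90 codons and their median count 330, and 204 (54.7%) had 100 codons or fewer. The median count was 25.7% of the largest coding ORF count of the gene in the same tissue. It was under 10% in 98 cases (26.3%), at 50% or more in 134, and the ORF itself held the largest count in 59 (15.8%). By contrast, the 375 stops that these genes had in both tissues belonged to ORFs of 360 codons in the median, with median counts of 1487 in root and 1064 in shoot, and 0 in root and 3 in shoot were under 10% of the gene's largest count. In the 1209 genes with several stops that were the same in both tissues, 1.41% of 2547 stops in root and 1.65% in shoot were under 10%. Counts of nested ORFs include the same fragments, so these shares of a gene's largest count do not add up.

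Genes with a low count in 1 tissue differed more often. The 1550 genes with at least 2 stops were divided into quartiles by the largest coding ORF count of the gene in the tissue where it was lower. Stops differed in 150 of 389 genes (38.6%, 33.7 to 43.6%) in the lowest quartile, at 7 to 598 counts. The next quartiles held 20.4% and 19.2%. In the highest, from 3311 counts, stops differed in 38 of 388 genes (9.79%, 7.02 to 13.2%). The part of the count in the differences of single genes was not tested. Since these quartiles use the same 2 ORF sets as the stops, they describe the sets only.

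**Figure D3:**
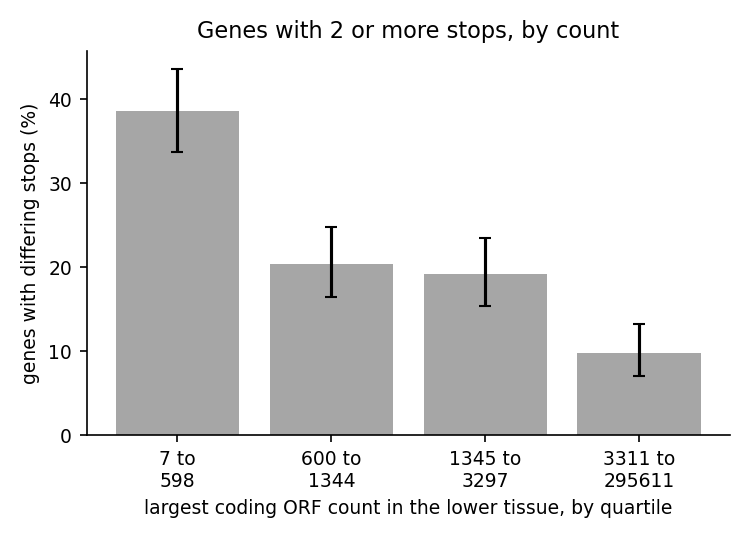
Percent of genes with 2 or more stops whose stops differed between the tissues, on the vertical axis from 0, by quartile of the largest coding ORF count in the lower tissue. Bars give the percent and whiskers the exact binomial 95% interval, falling from 38.6% in the lowest quartile to 9.79% in the highest.

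The additional stop was mostly found in the tissue where the gene had the larger share of counts. Of the 184 genes with extra stops in root, 150 (81.5%, 75.1 to 86.9%) had the larger share of the tissue's coding counts in root, and of the 139 with extra stops in shoot, 94 (67.6%, 59.2 to 75.3%) had the larger share in shoot. The changed ORF itself set the gene's count in 59 of the 373 cases, so the choice of genes and these shares are not independent. Among the 1209 genes with the same stops, 62.5% had the larger share in root, and 63.1% among all 14635 genes. The log2 ratio of the shoot share to the root share was taken where the higher of the tissues had 100 counts or more, adding 0.5 to each count. Its median was -0.89 in the genes with extra root stops and 0.73 in those with extra shoot stops. Over 339 of the 341 genes it was -0.29 (-0.48 to -0.14), beside -0.34 over all 14619 genes tested, and became 0.049 when the median of all genes was set to 0.

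Under the main scaling, large differences in count between the tissues were somewhat more frequent towards shoot than in the background. Shares were at least 4-fold higher in shoot in 52 of the 339 genes (15.3%, 11.7 to 19.6%), where 9.54% of all genes tested were. Shares at least 4-fold higher in root were found in 36 (10.6%, 7.55 to 14.4%), which is near the 9.88% of all genes tested. Of the 52, the genes with extra shoot stops gave 44, and of the 36, those with extra root stops gave 34. With the median ratio of all genes set to 0, the numbers were 56 towards shoot and 24 towards root. The shares of all genes were not taken under that scaling, so 9.54% and 9.88% do not serve as its background. For the 1209 genes with several stops that were the same, the numbers under the main scaling were 119 (9.84%) towards shoot and 74 (6.12%) towards root.

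**Figure D4:**
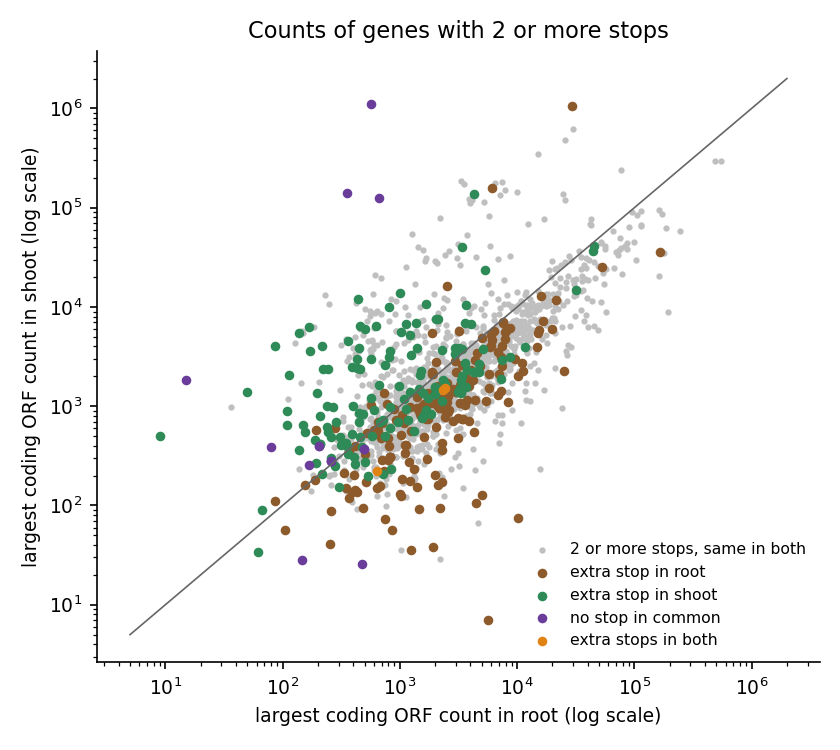
Largest coding ORF count of each gene with 2 or more stops in root, horizontally, and in shoot, vertically, both logarithmic, with 1 point per gene. Grey points are genes with the same stops in both tissues, coloured points are those with differing stops, and the line marks equal counts. Genes with extra root stops lie mainly under the line (165 of 184 have the larger count in root), and most with extra shoot stops lie above it (86 of 139).

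Exceptions to this order included abundant photosynthesis genes. RBCS1A encodes a small subunit of Rubisco, the enzyme that fixes CO2. Its main ORF had 29379 counts over 176 codons in root and 1065418 counts over 180 codons in shoot. Yet the ORF of the second annotated transcript, AT1G67090.2, which has 132 codons and ends at position 25048593 of chromosome 1, was listed in root alone, at 24334 counts. The second ORF of that transcript, with 57 codons, was listed in both tissues, at 9369 counts in root and 364856 in shoot. LHCB4.2, a minor light-harvesting antenna protein of photosystem II, had its 287-codon ORF at 6128 counts in root and 157003 in shoot, and a 227-codon ORF at 3593 counts in root only. PGRL1B, which acts in cyclic electron flow, had 2018 and 2778 counts and an extra root stop of a 70-codon ORF at 291 counts. CHL-CPN10, a chloroplast co-chaperonin, had 2501 and 16240 counts and an extra 87-codon ORF, overlapping no other, at 182 counts in root. In each of these 4 genes the extra stop was in root and the larger count in shoot. RPS10B, a protein of the small ribosomal subunit, had an extra 22-codon ORF in shoot at 8003 counts, with 44019 counts in root and 36941 in shoot. As shares of the tissues' counts these were nearly equal, at a log2 ratio of -0.0052.

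The 15 genes that shared no stop included 3 of the plastid genome with the highest counts. The gene rbcL, for the large subunit of Rubisco, was listed in shoot with its 479-codon ORF at 1120539 counts and in root with a 3-codon ORF at 572 counts (526 to 621). Those for the reaction-centre proteins of photosystem I, psaA and psaB, behaved alike. The ORF of psaA had 750 codons and 139149 counts in shoot and 18 codons and 353 counts (317 to 392) in root. For psaB it was 734 codons and 124154 counts in shoot, and 23 codons and 662 counts (613 to 714) in root. All 3 root ORFs lay inside the shoot ORF and were read in another frame. The log2 ratios of 11.18, 8.87 and 7.80 set these short ORFs against the long ones and are not ratios of the same ORF. Plastid ORFs of full length were thus not listed in root for any of the 3.

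PIL5, the phytochrome-interacting bHLH factor that represses seed germination, also had no stop in common. In root it was listed with a 78-codon ORF at 15 counts (8.40 to 24.7), and in shoot with ORFs of 478 and 407 codons at 1821 and 1179 counts. The root ORF begins at the same start, and its stop lies inside a coding block of the shoot ORF, 1652 bases from the shoot stop. AT2G45630 had 175 codons and 79 counts in root and 306 codons and 386 counts in shoot. BPEp, a bHLH factor known for limiting petal size, had 258 codons and 146 counts in root and 285 codons and 28 counts (18.6 to 40.5) in shoot. PLPB, a PAS/LOV domain protein, was listed in root with a 26-codon ORF at 168 counts, and in shoot with ORFs of 399, 397 and 358 codons at 254, 254 and 186 counts. AT1G10040 had nearly the same ORF in both tissues, with 412 codons and 477 counts in root and 408 codons and 26 counts (17.0 to 38.1) in shoot, and its stops were 16 bases apart. The 7 identifiers not yet named stand for 3 loci, since AT2G37478 and AT2G37480, AT4G25670 and AT4G25672, and AT1G29950, AT1G29951 and AT1G29952 carry ORFs at the same coordinates. At the AT2G37480 locus the root ORF had 43 codons and 494 counts and the shoot ORF 194 codons and 375 counts, and at the AT4G25670 locus 52 codons and 206 counts stood against 188 codons and 396 counts. The AT1G29950 locus had ORFs of 82 codons and 25 codons in root, at 259 and 258 counts, and 1 of 48 codons in shoot at 282 counts. At these 3 loci the ORFs of the tissues did not overlap.

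IRT1 shows the most frequent pattern, an additional stop inside an intron. It encodes the main iron transporter of the root epidermis, on the plus strand of chromosome 4. In root its 3-block ORF, from position 10707488 to 10708722, had 347 codons and 10236 counts (10039 to 10436). The ORF of transcript AT4G19690.1 began at the same position, ran past the end of the first block and stopped at 10708121 after 211 codons. It had 4686 counts (4553 to 4822), or 45.8% of the larger count. Of its 634 bases, the first 587 are also the first block of the 3-block ORF. Its count thus includes fragments of that block, and no count for the bases past it is given. In shoot only the 3-block ORF was listed, 8 codons shorter at its start, with 339 codons and 75 counts (59.0 to 94.0). The log2 ratio was -6.84, a 114-fold lower share in shoot. UMAMIT4, of a family of amino acid transporters, had the largest ratio towards root, with 5637 counts in root and 7 (2.81 to 14.4) in shoot, a log2 ratio of -9.31. Its extra root ORF of 64 codons had 810 counts.

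**Figure D5:**
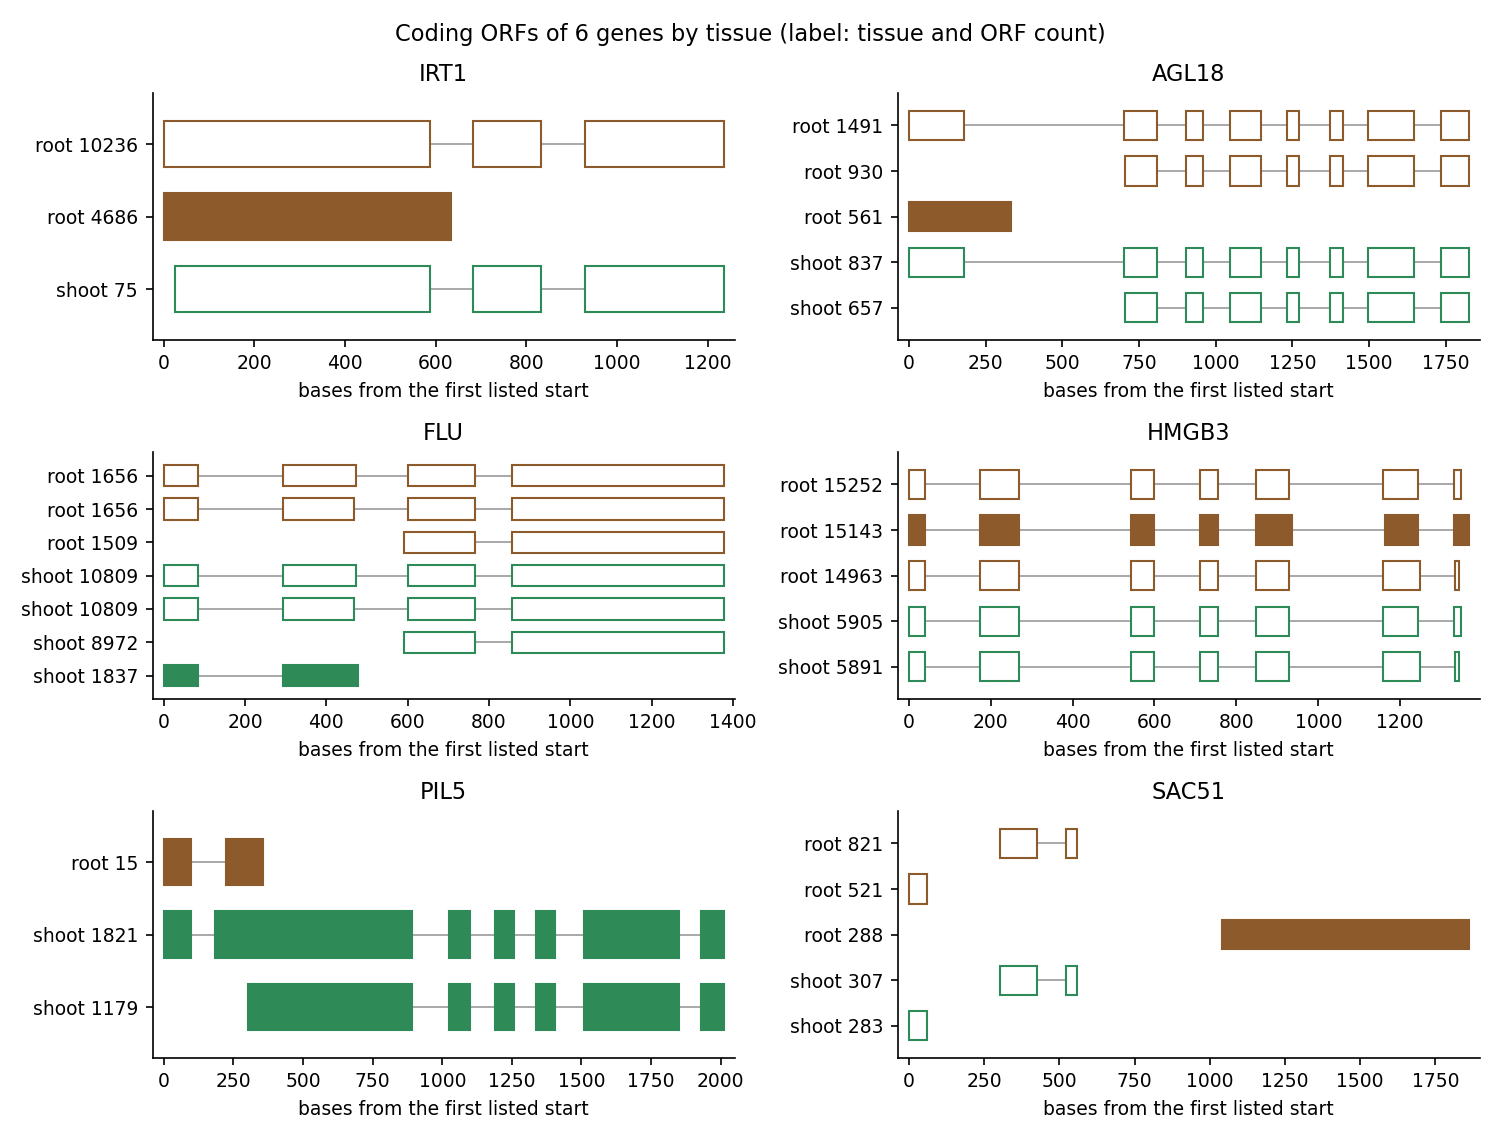
Coding ORFs listed in root and shoot for IRT1, AGL18, FLU, HMGB3, PIL5 and SAC51, with bases from the first listed start of the gene along the horizontal axis and 1 row per ORF labelled with its tissue and count. Boxes are coding blocks and thin lines introns, filled where the stop of the ORF was listed in that tissue only. Single filled boxes that run past the first block of the gene's root ORF of largest count are seen in IRT1 and AGL18. PIL5 has filled boxes throughout because its tissues share no stop.

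Genes of hormone responses and transport, all named after their values were seen, also had an extra stop. It lay inside a coding block of the partner in SUT2, CPD and ARF11 and inside an intron in the others. In root, JAZ1, a repressor of jasmonate responses, had an 83-codon ORF with 472 counts beside its 249-codon ORF with 2859, and in shoot the long form had 253 codons and 1508 counts. CYP711A1, an enzyme of strigolactone synthesis, had a 93-codon ORF at 645 counts in root beside 522 codons at 4862 counts, which in shoot had 2554. AMT2, an ammonium transporter, had 124 codons at 362 counts in root, and the sucrose transporter SUT2 had 149 codons at 868. Extra root stops also occurred in UMAMIT28, at 335 counts, and UMAMIT22, at 1609, while UMAMIT20 had its extra stop in shoot at 76 counts. In shoot, CPD, an enzyme of brassinosteroid synthesis, had an extra 91-codon ORF at 678 counts, ARF11, an auxin response factor, 55 codons at 46 counts, and bHLH104, a regulator of iron deficiency responses, 25 codons at 87 counts. The counts of the extra ORFs ran from 46 in ARF11 to 1609 in UMAMIT22, and in each of these genes an ORF with a shared stop had a larger count.

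For some of these stops the counts were tied to each other by exact sums. In 37 of the 373 cases (9.92%) the count of the ORF with the changed stop plus that of a second, separate ORF of the same transcript equalled the count of a longer ORF of the gene that overlaps both. In AGL18, a MADS-box factor, 561 counts of the 111-codon root ORF and 930 of the 195-codon ORF that follows it make the 1491 of the 256-codon ORF. FLU, which restrains chlorophyll synthesis, had 1837 and 8972 counts in shoot and 10809 in its full ORF. HY2, the phytochromobilin synthase of phytochrome assembly, had 398, 1656 and 2054 in shoot. CBL1, a calcium sensor, had 290, 1974 and 2264 in root, and UMAMIT28 335, 1879 and 2214. Such a sum means that any counts the 2 shorter ORFs have outside the longer one equal those the longer one has outside them. In a further 14 cases the count equalled that of an overlapping ORF with another stop, such as JAZ10, where 3 root ORFs each had 194. Either equality was present in 51 cases (13.7%), and in 33 of the 137 stops inside an intron (24.1%).

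The same sums give a value for the tissue that lacks the stop. In 20 of the 37 cases the longer ORF and the second ORF were both listed at the same coordinates in the other tissue, so the difference of their counts there can be taken. It is a net value, since a second ORF such as that of FLU has some bases outside the longer one. As a percent of the longer ORF, this difference was lower than in the tissue with the stop in 12 cases and higher in 8, with medians of 15.2% in the tissue with the stop and 12.9% in the one without. AGB1, the beta subunit of the heterotrimeric G protein, had 542 of 2112 counts (25.7%) in its 88-codon root ORF, and the difference in shoot was 32 of 1602 (2.00%). CYP711A1 had 645 of 4862 (13.3%) in root and 50 of 2554 (1.96%) in shoot. GLP10 went the other way, with 1011 of 6853 (14.8%) in root and 475 of 1288 (36.9%) in shoot, where no stop was listed. The difference in the tissue without the stop ran from 10 to 727 counts over the 20 cases.

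The extra stops with the largest counts belonged to genes of several kinds. TPX1, a thioredoxin-dependent peroxidase, had a 162-codon ORF in both tissues, with 53227 counts in root and 25385 in shoot, and a 69-codon ORF in root only, with 33243. ABCI21, of the ATP-binding cassette family, had 282 codons at 25210 and 2278 counts and a 223-codon ORF at 16435 in root only, while its 214-codon ORF was listed in both, at 15797 and 1064. HMGB3, a high-mobility group chromatin protein, had ORFs of 141 and 140 codons in both tissues. Another, with 147 codons, a stop 19 bases from the nearest and 15143 counts, was listed in root only. The root counts of the 3 HMGB3 ORFs, 15252, 15143 and 14963, differed by little because most of their bases are shared. In shoot, SEN1, a gene induced in darkness and senescence, had 182 codons at 4028 counts, with 2 further stops from ORFs of 177 and 161 codons at 3930 and 3100, where root had 216 counts in all for its 182-codon ORF. AGP17, an arabinogalactan protein, had 162 codons at 5284 counts in shoot only, beside 185 codons at 5942 in shoot and 502 in root. GAPA-2, a subunit of the chloroplast glyceraldehyde-3-phosphate dehydrogenase, had 399 codons at 4254 counts in root and 136497 in shoot and an extra 50-codon ORF at 8442 in shoot, which is 6.18% of the larger count. The others of this group were AT2G16980, with 408 codons at 4564 counts in root only beside 461 codons at 5031 in root and 127 in shoot, and, in shoot, AT5G28500 and AT5G22340. AT5G28500 had 269 codons at 7622 counts in shoot only beside 434 codons at 441 in root and 11984 in shoot. AT5G22340 had 340 codons at 6421 counts in shoot only, beside 323 codons at 6401 in shoot and 262 codons at 454 in root.

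The closest pairs of stops lay only bases apart. AT4G32590 had a shoot stop 5 bases from its root stop, with 2604 counts for each of its 3 shoot ORFs. AT1G56220 had a root stop 7 bases from its shoot stop, and AT3G54060 a shoot stop 13 bases from its root stop. These were the nearest to the limit of the rule, which is an exact match, and allowing 3 bases of difference left all 341 genes in place. The most distant stops were those of short ORFs near the start of long genes, up to 6025 bases for CCT, a subunit of the Mediator kinase module, where a 73-codon ORF read in another frame had 190 counts in root and the 2253-codon ORF 3372 in root and 2631 in shoot. AT3G58640 followed at 5279 bases, FCA at 4724 and SS3, a starch synthase, at 4427. The median distance was 1224 bases.

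In some genes the longest form was the one found in a single tissue. For 42 of the 266 stops with a partner in frame, the changed ORF was longer than its partner. Of the examples given here, CYP79F1, CRK40 and JAZ4 were named after their values were seen. PRR9, a pseudo-response regulator of the circadian clock, had its 456-codon ORF in shoot only, at 695 counts (644 to 749), while a form that ends early was listed in both, with 107 codons and 286 counts in root and 119 codons and 124 counts in shoot. The long form was not listed in root. The 107-codon root ORF begins at the start of the long form and shares 314 bases with it, 312 of them in frame. Its 286 counts thus cannot be given to the short form alone. The short ORFs of root and shoot also differ in their start, so 286 and 124 are not counts of the same ORF. CYP79F1, an enzyme of aliphatic glucosinolate synthesis, had its 537-codon ORF at 3678 counts in shoot only, and the earlier stop in both tissues, at 2283 counts over 361 codons in root and 3241 over 422 in shoot. CRK40, a cysteine-rich receptor-like kinase, had the reverse arrangement in shoot, where the extra stop closed a 571-codon ORF with 3603 counts beside 654 codons with 4039, and root had 86. JAZ4 had a 310-codon ORF at 1242 counts in root only, and a stop listed in both tissues for ORFs of 277 codons at 1199 counts in root and 175 codons at 36 (25.2 to 49.8) in shoot. In PRR9, CYP79F1 and JAZ4 the long form itself held the largest count of the gene in its tissue.

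Of 29 genes known in Arabidopsis for alternative protein ends, 26 had a coding ORF in both tissues, 14 had 2 or more stops and 6 had differing stops, where 2.33% of all genes listed in both tissues and 22.0% of those with 2 or more stops had them. These were FCA, JAZ10, CIPK3, LHY, PRR9 and HYH. FCA, an RNA-binding regulator of flowering time known for an early end in an intron, had this 226-codon ORF in root only, at 219 counts (191 to 250), beside a 713-codon ORF at 690. Shoot listed the 672-codon form at 480 counts (438 to 525) and not the early end. A 505-codon ORF further downstream in the transcript with the early end was listed in both tissues, at 254 counts in root and 304 in shoot. JAZ10 had ORFs of 197 and 185 codons in both tissues and 1 of 167 codons in root only, although its counts were lower in root, at 194 against 578. CIPK3 had 4 stops in both tissues and an extra 35-codon root ORF at 240 of 9517 counts. LHY, a clock transcription factor, had 2 extra stops in shoot, from ORFs of 82 and 29 codons at 868 and 616 counts, with its 645-codon ORF at 2044 counts in root and 7488 in shoot. HYH, a bZIP factor of light signalling, had an extra 24-codon shoot ORF at 446 counts beside 3411 counts in root and 3811 in shoot for the main form. The other 8 genes of this list with 2 or more stops had the same stops in both tissues, among them the Rubisco activase gene RCA, with 3 stops and counts of 29723 and 621750.

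SR proteins, which guide splice site choice and are themselves alternatively spliced, gave 2 of the 18 listed in root and in shoot. Only 8 of the 18 had 2 or more stops, and both genes with differing stops were among these 8. The share over all genes with 2 or more stops was 22.0%, and 2 of 8 does not set this list apart from it. RS2Z32 had nearly equal main counts, 4997 in root and 4869 in shoot, and an extra 54-codon ORF at 926 counts in root. RS40 had an extra 38-codon root ORF at 175 counts beside 2039, and 619 in shoot. Of the 16 Calvin cycle genes chosen for a list, 14 had a coding ORF in both tissues and 4 had 2 or more stops. RBCS1A alone of that list had differing ones. The list did not hold GAPA-2 and rbcL, whose stops also differed. By keyword in gene names, differing stops were found in 9 of 409 kinase genes (2.20%), 7 of 182 transporter genes (3.85%), 5 of 132 chloroplast or photosystem genes (3.79%), 2 of 64 ribosomal protein genes (3.13%), 2 of 68 transcription factor genes (2.94%), 2 of 40 RNA-binding or splicing genes (5%) and 1 of 25 peroxidase genes (4.00%). The share over all genes was 2.33%, and with 9 or fewer genes per class none of these counts sets a class apart.

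Short ORFs in transcript leaders made up a further class, named here after their values were seen. SAC51, a bHLH factor in the thermospermine pathway of xylem development, had ORFs of 53 and 20 codons in both tissues, at 821 and 521 counts in root and 307 and 283 in shoot. Its 273-codon ORF downstream of them was listed in root only, at 288 counts. The identifiers AT5G64341, AT5G64342 and AT5G64343, carry these ORFs at the same coordinates, and each of the other genes of this class shares ORFs with 1 further identifier. LHW, a bHLH factor of vascular cell division, had 2 extra 29-codon ORFs ahead of its main ORF in root, at 295 and 290 counts, with the main ORF at 2073 counts in root and 1024 in shoot. WNK8, a kinase of the WNK family, had an extra 43-codon root ORF at 250 counts, and PAO2 a 55-codon ORF at 199. PAO3, like PAO2 a polyamine oxidase, had its extra 68-codon ORF in shoot, at 146 counts, with 4266 main counts in root and 2215 in shoot. ANK6, a phytochrome-interacting ankyrin protein, had a 41-codon ORF at 653 counts in root only and a 174-codon ORF at 568 in root and 563 in shoot. CRF12, a cytokinin response factor, resembled SAC51 with the tissues exchanged, with the 287-codon ORF in shoot only, at 417 counts, and the upstream one in both. In SAC51 and CRF12 it was thus the main ORF that changed its listing, and in the other 5 genes the upstream one.

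The remaining examples, named after their values were seen, are of genes with roles in roots, in shoots or in flowering. MRH2, a kinesin of root hair growth, had 4451 counts in root and 105 in shoot, and in root a second, separate 117-codon ORF at 561. CNGC9, a channel of root hairs, had 4300 and 551 counts, and its extra 31-codon root ORF had 57 (43.2 to 73.9). SCR, a GRAS factor that patterns the root ground tissue and bundle sheath, had its 653-codon ORF at 3581 counts in root and 2699 in shoot and an extra 26-codon shoot ORF at 18 (10.7 to 28.4), or 0.667% of the main count. CER1, which makes cuticular alkanes, had 222 counts in root and 2348 in shoot and an extra 179-codon ORF at 509 in shoot. PIFI, a chloroplast protein of electron flow, had 167 and 6214 counts and an extra 77-codon shoot ORF at 783. FLC, the repressor of flowering that is silenced by cold, had 366 counts in root with 3 stops and 119 in shoot with 1. Its 2 extra root ORFs of 186 and 167 codons had 282 counts each. Except in SCR, the extra stop of these 6 genes was in the organ with the larger count.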

How the data were processed

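Ribosome profiling and RNA-seq samples of root and shoot were labelled as 3 each. The deposited tables give 1 set of translated ORFs per tissue, with a whole-number count per ORF repeated on each block and read from the values, not scaled by the authors in any way the files show. Per the submitters' processing notes, the build was TAIR10 and the tools Bowtie2 and STAR 2.5.1b. Which program called the ORFs, and whether samples were pooled for it, is not given in the sources used here. A coding count was never below 6 in each tissue, so an ORF that is not listed may still have had fragments.

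Blocks of 1 name were joined, and coding ORFs of a gene with the same coordinates were merged. Positions are 1-based. Block lengths differed from the coding length by 1 base in every ORF, always the same way on a strand, so outer ends are uncertain by 1 base. Names came from a RefSeq table (TAIR10.1) by locus tag, and for 3 plastid genes by position within 2 bases. Ratios use the largest coding ORF count per gene over its sum in the tissue. Binomial intervals are Clopper-Pearson and those of counts exact Poisson, at 95%. The Poisson intervals cover counting error only, and without molecular identifiers, of which the labels say nothing, several fragments may be copies of 1 molecule. The binomial ones treat genes or stops as independent draws, although 31 of the genes share an ORF with another identifier. The interval of the median log2 ratio is taken over 339 genes. No test between tissues was made.

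The genes, lists and rules were chosen with earlier results of these data known. The rule for named genes took the 10 genes of largest count without a shared stop, the 6 root and 6 shoot genes whose extra stop has the largest count, the 4 most distant and 3 closest stops, members of the lists of protein ends, SR proteins and the Calvin cycle, and 3 ratios at each extreme. Other genes, the partner by bases in frame and the sums of counts were added after values were seen. The design set the partner as the ORF with the nearest stop, which was used for last blocks and distances. Calculations were tested on simulated sets. Software was matplotlib 3.10.9, scipy 1.17.1, pandas 2.3.3 and numpy 2.4.6 under Python 3.11.15.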

Additional observations from a re-analysis of the deposited data

How the results depend on the processing

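With coding ORFs of at least 100 codons, 141 genes differed (0.992%), of which 3 shared no stop, 73 had extra root and 64 extra shoot stops. At or above the first quartile of counts the numbers were 165 (1.63%), 2, 111 and 52. With the ORF of largest count per gene, 100 genes differed (0.683%), and with the longest 58 (0.396%). These 100 and 58 all shared no stop, leaving 0 with extra root and 0 with extra shoot stops, since each gene then has 1 stop per tissue. The percent was 2.09% with counts of at least 100 and 1.82% with ORFs at 10% or more of their gene's largest count. Without genes that share an ORF with another identifier, an alternative added after the data were seen, 8 shared no stop. Scaling on the median ratio, which shifts all log2 ratios by the -0.34 of all genes, reversed the median log2 ratio from -0.29 to 0.049. The other 45 values kept their direction, with counts within 1.5 times. Among them were moves from 36 to 24 genes at least 4-fold higher in root, under median scaling and under counts per codon, from 52 to 40 in shoot per codon, and from 341 to 267 differing genes with the 10% limit. No paired analysis was possible because each tissue has 1 ORF set with no value per replicate, and leaving out replicates was not run for the same reason. The part of depth in the listing of short ORFs was not tested.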
